A study of Mus musculus with 6 samples.

Results

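The Iroquois genes encode homeodomain transcription factors and lie in both mouse and human in a pair of clusters that arose by duplication. All 6 of them, Irx1 to Irx6, were taken by their symbols from the 38918 genes listed for hearts of E11.5 mouse embryos. The family was selected on the FPKM of Irx5 and Irx6, already known from these data to be lower in the mutant hearts, so the genotype differences of its members are descriptions and support nothing. The conditional knockout hearts (Nfatc1Cre:Tie2 flox/flox, 3 libraries) carried floxed alleles of Tie2, the angiopoietin receptor gene Tek, together with Cre expressed under Nfatc1, a transcription factor gene active in endocardium. The control hearts (Tie2 flox/wild-type, 3 libraries) were littermates with 1 floxed allele, and all embryos had a C57/BL6 background. The labels name no Cre for the controls, so the effects of the Cre allele and of the loss of Tie2 cannot be told apart. The labels describe RNA of 18 hearts per genotype as combined and then divided into the 3 libraries, and nothing says that the libraries came from separate embryos, so p-values measure only the spread between libraries. Libraries of 1 genotype nevertheless differed in RNA of other organs. Liver markers summed to 4.12, 220 and 0.883 FPKM in the conditional knockout libraries and to 79.3, 20.7 and 24.4 FPKM in the control libraries, and foregut epithelium markers stood apart in conditional knockout replicate 1. These values go against an even division of 1 pool, so what a replicate is, and with it what each SD and p-value covers, is uncertain.

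Iroquois factors bind DNA through a homeodomain of the TALE class, which is longer than the usual homeodomain. In the developing heart they are known for regional patterns: Irx4 marks ventricular myocardium, Irx3 is used in trabeculae and the ventricular conduction system, Irx5 is used in the endocardium, and Irx1 and Irx2 mark myocardium of the ventricular septum. Genes at matching places of the clusters are the closest relatives, so that Irx1 pairs with Irx3, Irx2 with Irx5 and Irx4 with Irx6.

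Irx3 (ENSMUSG00000031734), Irx5 (ENSMUSG00000031737) and Irx6 (ENSMUSG00000031738) lie on chromosome 8 within 882.4 kb (GRCm38, the assembly behind the build mm10 of the submitters' notes). Irx3 runs on the minus strand from 91798525 to 91802067, Irx5 on the plus strand from 92357625 to 92376286, and Irx6 on the plus strand from 92674288 to 92680956. Irx1 (ENSMUSG00000060969), Irx2 (ENSMUSG00000001504) and Irx4 (ENSMUSG00000021604) lie on chromosome 13 within 1311.7 kb. Irx1 runs on the minus strand from 71957921 to 71963723, Irx2 on the plus strand from 72628820 to 72634198, and Irx4 on the plus strand from 73260479 to 73269608. All 6 are annotated as protein coding.

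The coding stretch below spans 24 codons around the DNA-contacting helix of the homeobox, and is shown because likeness between members decides whether reads can be assigned to 1 of them. It was read 5′ to 3′ on the coding strand from GENCODE M21 transcripts, and capitals mark bases shared by all 6 genes. The stretch lies in exon 2 of the transcript for Irx1 (chr13:71959983-71960054), Irx2 (chr13:72630790-72630861), Irx3 (chr8:91800487-91800558) and Irx5 (chr8:92359753-92359824), in exon 4 for Irx6 (chr8:92677362-92677433) and in exon 5 for Irx4 (chr13:73267649-73267720).
Irx3: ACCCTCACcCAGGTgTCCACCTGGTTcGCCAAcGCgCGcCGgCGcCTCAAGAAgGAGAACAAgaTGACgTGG
Irx5: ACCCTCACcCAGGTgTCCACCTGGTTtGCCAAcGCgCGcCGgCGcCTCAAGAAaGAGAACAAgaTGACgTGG
Irx6: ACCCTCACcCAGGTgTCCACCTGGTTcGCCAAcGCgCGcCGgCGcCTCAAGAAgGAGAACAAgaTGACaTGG
Irx1: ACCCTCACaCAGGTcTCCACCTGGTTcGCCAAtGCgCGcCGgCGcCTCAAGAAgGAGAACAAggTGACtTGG
Irx2: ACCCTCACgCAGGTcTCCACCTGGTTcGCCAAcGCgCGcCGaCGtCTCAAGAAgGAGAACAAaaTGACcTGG
Irx4: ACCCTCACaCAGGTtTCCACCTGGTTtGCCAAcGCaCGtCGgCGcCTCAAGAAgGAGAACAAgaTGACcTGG

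Of these 72 bases 60 were identical in all members, and 23 of the 24 codons encoded the same residue, with Irx1 differing at the other. Irx3 and Irx6 differed at a single base, sharing 71 of 72, and Irx3 and Irx5 shared 70. Over whole transcripts the longest run of identical bases was 88 between Irx3 and Irx6, and it overlapped part of this stretch. Runs of 65 between Irx2 and Irx5 and of 50 between Irx3 and Irx5 followed. The other 12 pairs shared runs of 23 to 41 bases. The length of the reads and the rule for those matching more than 1 gene are not stated in any source used. Reads from within these runs could be split between members, so their assignment is uncertain, while the rest of each transcript differs.

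Levels are given as FPKM, fragments scaled by transcript length and library size, which allows members to be set side by side. Irx4 was at 15.6, 20.98 and 22.8 FPKM in the conditional knockout libraries, against 23.4, 24.6 and 25.0 FPKM in the control libraries. Irx2 was at 16.8, 12.6 and 12.2 FPKM in conditional knockout hearts and at 11.6, 12.2 and 11.1 FPKM in control hearts. These members of the chromosome 13 cluster stood highest of the family in every library, with Irx4 above Irx2 in 5 of 6 and Irx2 above Irx4 in conditional knockout replicate 1.

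Irx5 was at 4.13, 4.22 and 4.15 FPKM in the conditional knockout libraries, against 10.3, 8.98 and 8.21 FPKM in the control libraries. Irx3 was at 4.60, 4.70 and 5.30 FPKM in conditional knockout hearts and at 5.60, 7.24 and 5.68 FPKM in control hearts. The order of this pair differed by genotype: Irx3 exceeded Irx5 in all 3 conditional knockout libraries, while Irx5 exceeded Irx3 in all 3 controls. The ratio of Irx5 to Irx3 averaged 0.860 ± 0.0663 in conditional knockout hearts and 1.51 ± 0.307 in control hearts (SD, n = 3 each), with no overlap.

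Irx1 was at 9.15, 3.11 and 3.01 FPKM in the conditional knockout libraries, against 4.53, 3.79 and 3.01 FPKM in the control libraries. Conditional knockout replicate 1 held the highest value and the remaining libraries overlapped. Irx6 was at 0.651, 0.841 and 0.437 FPKM in conditional knockout hearts and at 3.27, 3.40 and 2.72 FPKM in control hearts. Irx6 ranked last in every library.

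The order of the levels in all 3 control libraries was Irx4, Irx2, Irx5, Irx3, Irx1 and Irx6, and neighbours in it did not overlap except Irx1 and Irx6. In conditional knockout replicates 2 and 3 it was Irx4, Irx2, Irx3, Irx5, Irx1 and Irx6, and in conditional knockout replicate 1 Irx2, Irx4, Irx1, Irx3, Irx5 and Irx6. Over the 3 conditional knockout libraries Irx4 overlapped Irx2, and Irx1 overlapped both Irx3 and Irx5, while Irx6 lay below all other members.

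**Figure D1:**
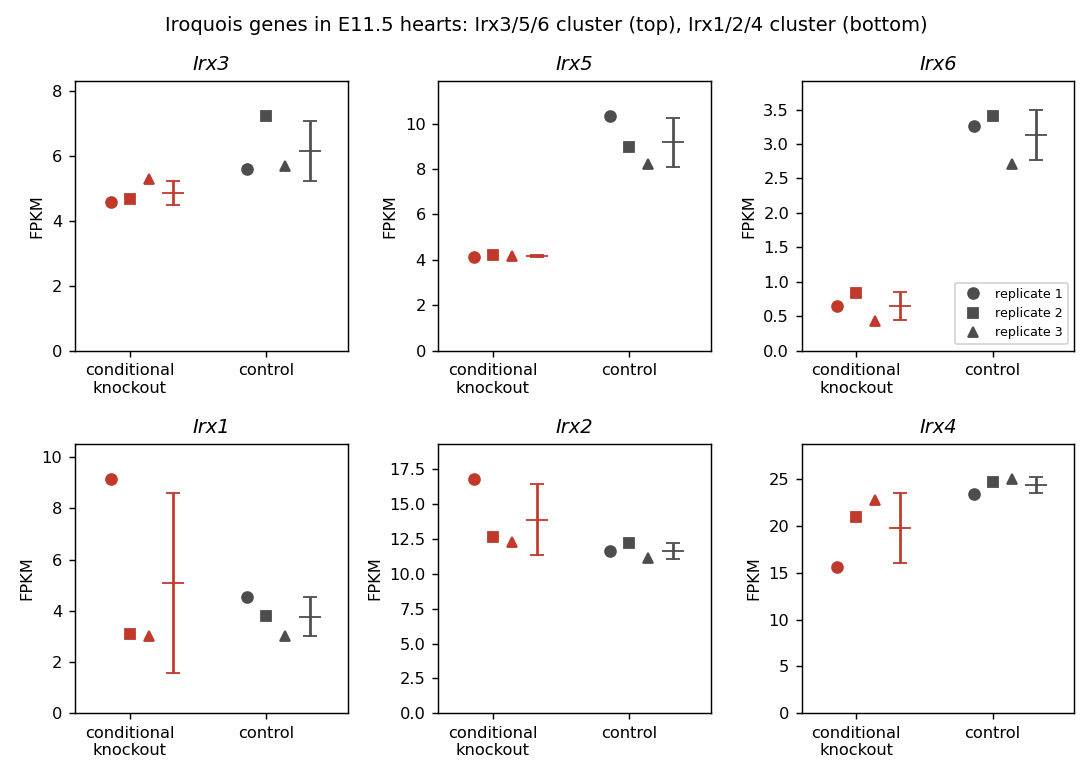
Level of each Iroquois gene (FPKM, y axis from 0) in 3 conditional knockout and 3 control libraries; symbols give the replicate number, and the dash with bars is the mean ± SD. Irx5 and Irx6 are separated by wide gaps, Irx3 and Irx4 by narrow ones, and conditional knockout replicate 1 stands apart for Irx1, Irx2 and Irx4.

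All 3 members of the chromosome 8 cluster were lower in every conditional knockout library than in any control library. The same held for Irx4 of the chromosome 13 cluster, and for 8.17% of all genes tested. Irx5 averaged 4.17 ± 0.0435 FPKM in conditional knockout hearts and 9.17 ± 1.07 FPKM in control hearts (SD, n = 3 each), a ratio of 0.454. Irx6 averaged 0.643 ± 0.202 FPKM in conditional knockout hearts and 3.13 ± 0.365 FPKM in control hearts, a ratio of 0.206, and had the lowest ratio of the family. Irx3 averaged 4.87 ± 0.379 FPKM in conditional knockout hearts and 6.17 ± 0.922 FPKM in control hearts, a ratio of 0.788. The gap between the nearest libraries of the groups was 3.999 FPKM for Irx5, 1.87 FPKM for Irx6 and 0.296 FPKM for Irx3.

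On chromosome 13, Irx4 averaged 19.8 ± 3.72 FPKM in conditional knockout hearts and 24.3 ± 0.827 FPKM in control hearts, a ratio of 0.813. Irx2 averaged 13.9 ± 2.53 FPKM in conditional knockout hearts and 11.6 ± 0.541 FPKM in control hearts, a ratio of 1.19. Irx1 averaged 5.09 ± 3.52 FPKM in conditional knockout hearts and 3.78 ± 0.756 FPKM in control hearts, a ratio of 1.35 (SD, n = 3 each). Without conditional knockout replicate 1 the ratio of Irx1 was 0.811, in the other direction, from a mean of 3.06 FPKM over the 2 conditional knockout libraries left. The nearest libraries of Irx2 were 0.0528 FPKM apart, and those of Irx1 overlapped.

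On the log2(FPKM + 1) scale, where differences of weakly expressed genes come out smaller, the fold changes of conditional knockout over control were -0.97 ± 0.11 for Irx5 and -1.33 ± 0.15 for Irx6 (moderated SE, limma). These are the values that led to the family being chosen, with limma adjusted p = 0.0220 and 0.0269 over all 12988 genes tested. The log2 fold changes were -0.28 ± 0.12 for Irx3, -0.30 ± 0.14 for Irx4, 0.22 ± 0.13 for Irx2 and 0.22 ± 0.35 for Irx1 (limma adjusted p = 0.748, 0.772, 0.804 and 0.919), and none of these 4 passed. Thus 2 of the 6 members were called lower and 0 higher, where limma called 0.177% of all genes, 0.123% lower and 0.0539% higher. At an unadjusted p under 0.05 limma counted Irx3 as well, and no member as higher, where 6.68% of all genes were counted, 4.37% lower and 2.31% higher. Libraries of the groups did not overlap for 4 members that were lower and 1 that was higher, against 8.17% and 5.23% of all genes, and 13.4% in either direction. Nothing is read from these counts, since the members were taken from this contrast. The median log2 fold change was -0.97 over Irx3, Irx5 and Irx6, 0.22 over Irx1, Irx2 and Irx4, and -0.01 over all genes tested. These cluster medians are the values of single genes, Irx5, on which the family was selected, and Irx1. Irx3 of chromosome 8, at -0.28, was no lower than Irx4 of chromosome 13, at -0.30. Without conditional knockout replicate 1 the median over Irx1, Irx2 and Irx4 was -0.15, so its direction rests on that library.

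The fit above did not use the replicate numbers. The calls of Irx5 and Irx6 were lost when the replicate number was taken as a block (limma adjusted p = 0.0604 for both). For Irx5 the limma adjusted p was 0.101, 0.1 and 0.128 without conditional knockout replicates 1, 2 and 3, and 0.0435, 0.158 and 0.0523 without control replicates 1, 2 and 3. For Irx6 it was 0.115, 0.0698 and 0.122 without these conditional knockout libraries and 0.1105, 0.219 and 0.0879 without these control libraries. The log2 fold change itself lay between -1.04 and -0.89 for Irx5 and between -1.42 and -1.24 for Irx6 in these fits.

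Summed by cluster, Irx3, Irx5 and Irx6 together stood at 9.39, 9.75 and 9.89 FPKM in the conditional knockout libraries, against 19.2, 19.6 and 16.6 FPKM in the control libraries. The ratio of means was 0.524, and the libraries did not overlap. Irx1, Irx2 and Irx4 together stood at 41.6, 36.7 and 38.0 FPKM in the conditional knockout libraries, against 39.5, 40.6 and 39.1 FPKM in the control libraries. Here the ratio was 0.975 and the libraries overlapped. The mean log2 fold change of the chromosome 8 cluster minus that of the chromosome 13 cluster was -0.91, with a spread over libraries of 0.27 (SD, both groups combined). The sum of the chromosome 8 cluster and this difference contain the values of Irx5 and Irx6 on which the family was selected.

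The chromosome 8 cluster made up 20.0% ± 1.40 of the summed Iroquois FPKM in conditional knockout hearts and 31.7% ± 1.62 in control hearts (SD, n = 3 each). Irx6 alone accounted for 1.33% ± 0.452 in conditional knockout hearts and 5.36% ± 0.426 in control hearts. Relative to Irx5, Irx6 stood at 15.4% ± 4.72 in conditional knockout hearts and at 34.2% ± 3.27 in control hearts. The family was selected on this pair, and Irx6 averaged only 0.643 FPKM in conditional knockout hearts, with an unknown counting error. Nothing is therefore read from their ratio. The share of Irx4 was 41.1% ± 9.13 in conditional knockout hearts and 41.9% ± 2.62 in control hearts, and the libraries overlapped.

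**Figure D2:**
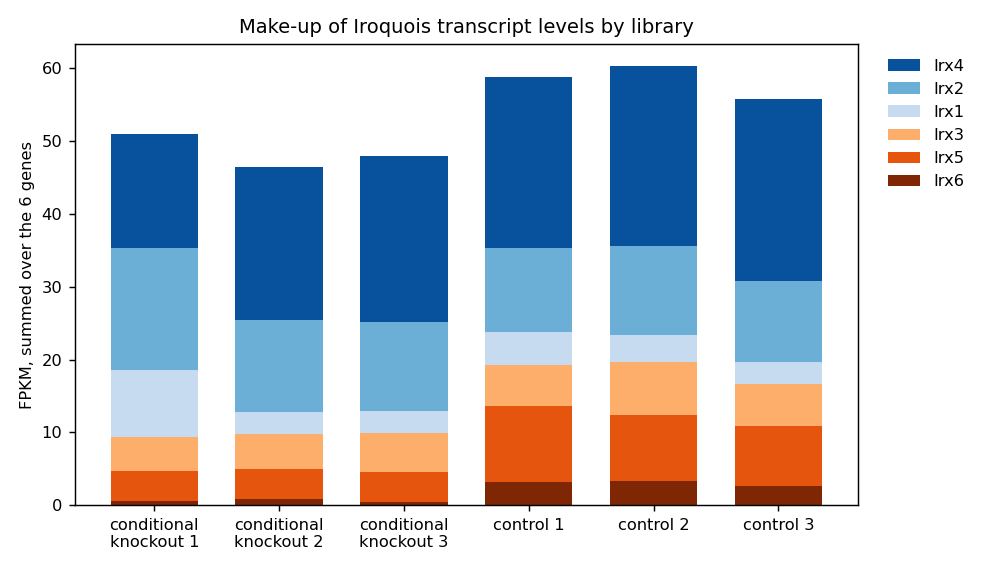
Stacked FPKM of the 6 Iroquois genes in each library, with the chromosome 8 cluster (Irx6, Irx5, Irx3) at the base in orange and brown and the chromosome 13 cluster (Irx1, Irx2, Irx4) above it in blue. The chromosome 8 part is 9.39 to 9.89 FPKM in conditional knockout libraries and 16.6 to 19.6 FPKM in control libraries, while the blue part overlaps between the groups.

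Other genes around the clusters are given as the setting of the members. Within 1 Mb of the chromosome 8 cluster 28 further genes were listed, of which 7 passed the filter of a mean of 1 FPKM. None of these 7 was called in either direction by limma, and none had an unadjusted p under 0.05. With 0.177% of all genes called and 6.68% at that unadjusted p, a count of 0 among so few genes shows nothing about them. Their log2 fold changes lay between -0.16 and 0.14, with a median of -0.13.

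Crnde, a non-coding transcript listed under the symbol 4933436C20Rik, starts 1504 bases from the start of Irx5, runs away from it on the opposite strand and is given for that position. It stood at 7.42, 6.80 and 8.52 FPKM in the conditional knockout libraries, against 7.55, 7.78 and 8.80 FPKM in the control libraries. The groups overlapped (log2 fold change -0.08 ± 0.11, SE, limma adjusted p = 0.900), unlike those of Irx5 beside it. Fto, the demethylase gene whose introns hold distant regulatory elements of Irx3, averaged 33.9 ± 2.25 FPKM in conditional knockout hearts and 38.2 ± 3.73 FPKM in control hearts (SD, n = 3 each, limma adjusted p = 0.811). Mmp2, a matrix metalloproteinase gene 146.3 kb beyond Irx6, averaged 35.3 ± 8.90 FPKM in conditional knockout hearts and 39.2 ± 6.09 FPKM in control hearts (limma adjusted p = 0.880). Aktip had a log2 fold change of -0.14 ± 0.09 (SE). It was the 1 gene of the 7 tested whose libraries did not overlap, being lower in every conditional knockout library, against 8.17% of all genes.

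The antisense transcript Irx3os, listed as D230002A01Rik, shares 1653 bases with Irx3, and no source used here states whether strand was counted. It was listed at 0.502, 0.581 and 0.509 FPKM in the conditional knockout libraries, against 0.506, 0.553 and 0.835 FPKM in the control libraries, below the filter and below Irx3 in each of them. Without strand, reads from the shared bases cannot be assigned to Irx3 or Irx3os.

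Within 1 Mb of the chromosome 13 cluster 27 further genes were listed and 13 were tested. Limma called none of them, against 0.177% of all genes, and the median log2 fold change was 0.00. At an unadjusted p under 0.05, 1 gene was higher and 0 lower, against 2.31% and 4.37% of all genes. For 2 genes every conditional knockout library was higher than any control library, against 5.23% of all genes. The most abundant were Ndufs6, a subunit gene of respiratory complex I, at 185 ± 10.6 FPKM in conditional knockout hearts and 201 ± 19.4 FPKM in control hearts (SD, n = 3 each), the mitochondrial ribosomal gene Mrpl36 and Clptm1l. Mrpl36 averaged 44.3 ± 2.88 FPKM in conditional knockout hearts and 47.1 ± 13.5 FPKM in control hearts, and Clptm1l 35.5 ± 2.52 FPKM in conditional knockout hearts and 38.2 ± 5.27 FPKM in control hearts.

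**Figure D3:**
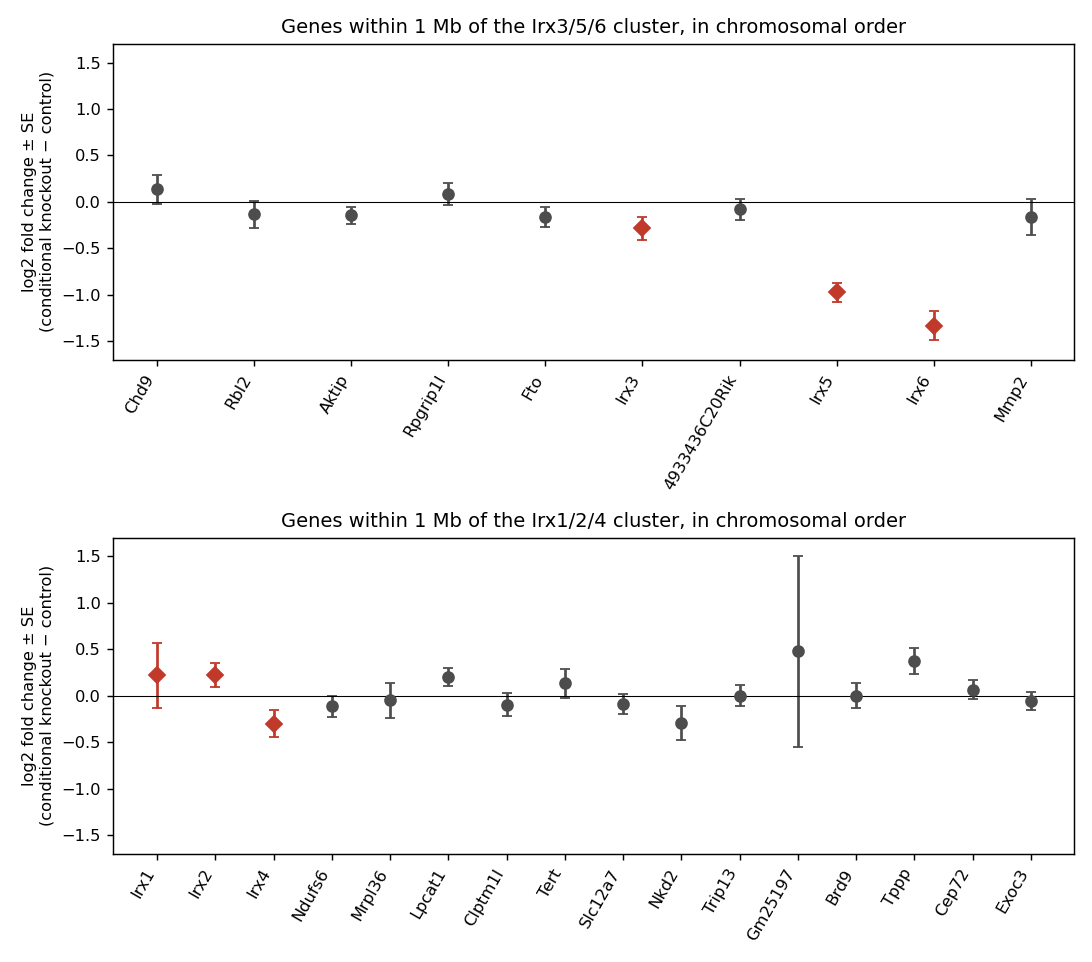
Log2 fold change (conditional knockout minus control, on the log2(FPKM + 1) scale) with its SE for each tested gene within 1 Mb of a cluster, in order along the chromosome; red diamonds are Iroquois genes and grey points other genes. Irx5 and Irx6 lie at -0.97 and -1.33, while the 7 other tested genes of their neighbourhood lie between -0.16 and 0.14.

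The genes whose levels over the 6 libraries most resembled each member differed between members, except that Npr3 was named for both Irx5 and Irx6. Likeness was the root mean square difference between centred log2(FPKM + 1) profiles, a description over 6 libraries that share their genotype groups. For Irx5 the nearest were Ednrb, the endothelin receptor gene of endocardium (0.0814), Bace2 (0.108), Npr3, the clearance receptor gene for natriuretic peptides (0.108), and Nos3, the endothelial nitric oxide synthase gene (0.115). The profile of Irx5 itself had a spread of 0.494 on this scale. For Irx6 the nearest were Plvap, which forms diaphragms of endothelial pores (0.0980), Gpr182, a receptor gene of endothelium (0.111), Acap1 (0.128) and Npr3 (0.130), beside a spread of 0.678.

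For Irx4 the nearest were Mapre2, a microtubule-binding protein gene (0.0290), Scube2 (0.0431), Cpt1b, the muscle enzyme gene for fatty acid import into mitochondria (0.0496), and Mybpc3, the cardiac myosin-binding protein C gene (0.0512). For Irx3 they were Tmem104 (0.0479), Kdm5c (0.0524), Lrrn2 (0.0526) and Rogdi (0.0592). The spreads of both members were low, at 0.219 and 0.184. None of the genes named for Irx3 and Irx4 passed in limma, whereas all those named for Irx5 and Irx6 passed except Nos3 (limma adjusted p = 0.0582), which follows from how they were chosen.

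Markers of the cell types were set beside the members, since RNA of whole hearts cannot tell fewer cells of a type from less RNA per cell. The marker lists were chosen with earlier results of these data known, so their counts are descriptions and support nothing. Of 10 listed endocardial markers 5 were called lower and 0 higher by limma, against 0.123% of all genes, with a median log2 fold change of -0.79. Their summed FPKM was 204 to 255 in conditional knockout libraries and 319 to 379 in control libraries. The 5 were Npr3, Plvap, Ednrb, Tmem100 and Gpr126, with log2 fold changes of -1.15, -1.22, -1.004, -1.35 and -1.01. Without conditional knockout replicate 1, 2 of these 5 markers, Npr3 and Tmem100, kept the call, while the median over the list was -0.76. Of 15 markers of endothelium in general limma called 0, with 9 lower and 2 higher at an unadjusted p under 0.05, against 4.37% and 2.31% of all genes, and a median of -0.29. Their sum was 249 to 273 FPKM in conditional knockout libraries and 328 to 375 FPKM in control libraries.

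As a share of the summed endocardial markers, Irx5 stood at 2.03%, 1.65% and 1.83% in the conditional knockout libraries, against 2.72%, 2.66% and 2.57% in the control libraries. Irx6 stood at 0.319%, 0.330% and 0.193% in conditional knockout hearts and at 0.862%, 1.01% and 0.851% in control hearts. These shares contain the values that selected both members and hold for the sum, in which the abundant Hapln1 and Emcn had log2 fold changes of -0.23 and 0.08. Set beside the 5 called markers one by one on the log2(FPKM + 1) scale, Irx5 at -0.97 was lower than none of them. Irx6 at -1.33 was lower than 4, Tmem100 being the exception. This order can differ in FPKM, as the added 1 shrinks differences of weakly expressed genes. Irx6 averaged 0.643 FPKM in conditional knockout hearts and 3.13 FPKM in control hearts, against 2.66 and 8.19 FPKM for Tmem100. Irx5 averaged 4.17 and 9.17 FPKM, against 20.4 and 41.9 FPKM for Ednrb. The 5 markers were picked as called in this same contrast, so nothing is read from the order. The part of endocardial cell number in the levels of Irx5 and Irx6 was not tested. Irx3 did not stand apart on this measure, at 2.14% ± 0.264 in conditional knockout hearts and 1.80% ± 0.334 in control hearts (SD, n = 3 each). Tek itself, the targeted gene, was at 3.38, 3.13 and 3.13 FPKM in the conditional knockout libraries, against 22.4, 25.7 and 16.6 FPKM in the control libraries.

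Of 8 myocardial markers limma called 0, against 0.177% of all genes, with 0 at an unadjusted p under 0.05, against 6.68%. Counts of 0 among so few genes show nothing about them. All 8 were lowest in conditional knockout replicate 1. Their sum was 11850, 17634 and 16253 FPKM in the conditional knockout libraries, against 17535, 17549 and 16765 FPKM in the control libraries. Irx4 was lowest in the same library. As a share of that sum Irx4 stood at 0.132%, 0.119% and 0.140% in the conditional knockout libraries, against 0.134%, 0.140% and 0.149% in the control libraries, and on this measure the groups overlapped. Without conditional knockout replicate 1 its log2 fold change was -0.15, with a mean of 21.9 FPKM over the 2 conditional knockout libraries left.

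Iroquois genes are also used in foregut and lung epithelium, and the sum of markers of that tissue was highest in conditional knockout replicate 1. Their sum was 14.9, 2.05 and 1.64 FPKM in the conditional knockout libraries, against 0.884, 0.669 and 0.933 FPKM in the control libraries. It was thus higher in every conditional knockout library than in any control library, also without replicate 1. In conditional knockout replicate 1, 7 of the 8 markers had their highest value, among them Nkx2-1, the lung and thyroid regulator gene, at 2.50 FPKM, Shh, the hedgehog ligand gene, at 1.58 FPKM, and the epithelial adhesion gene Epcam at 3.84 FPKM. Nkx2-1 was at 0.0352 and 0.289 FPKM in the other conditional knockout libraries and at 0 to 0.0119 FPKM in controls, and Sftpc, the surfactant protein gene, was at 0 in every library. The highest values of Irx1, at 9.15 FPKM, and Irx2, at 16.8 FPKM, occurred in this library. Without it the log2 fold change of Irx1 was -0.22 in place of 0.22, and that of Irx2 was 0.09. The part of epithelial RNA in these values was not tested. Markers of neural tube and neural crest summed to 8.80, 9.13 and 6.57 FPKM in the conditional knockout libraries and to 8.86, 7.59 and 7.80 FPKM in the control libraries, which overlapped. Sums of epicardial markers, at 161 to 173 FPKM in conditional knockout libraries and 158 to 174 FPKM in control libraries, and of cushion mesenchyme markers, at 175 to 254 FPKM in conditional knockout libraries and 157 to 255 FPKM in control libraries, overlapped as well.

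**Figure D4:**
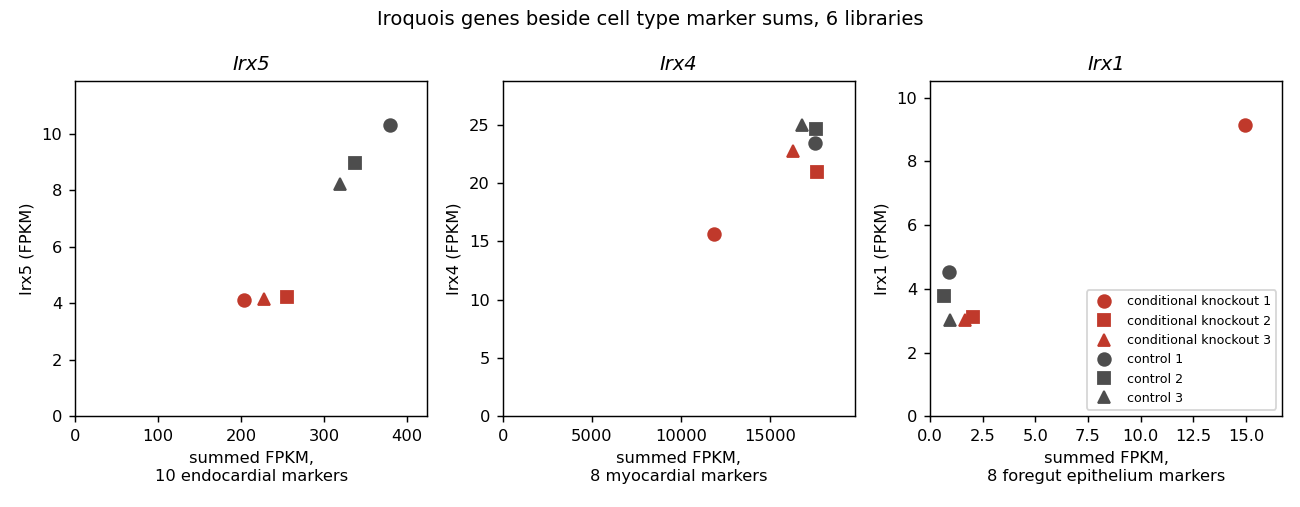
Irx5, Irx4 and Irx1 (FPKM, y axes) against the summed FPKM of endocardial, myocardial and foregut epithelium markers (x axes) in the 6 libraries. Irx5 and the endocardial sum are both lower in all 3 conditional knockout libraries, and conditional knockout replicate 1 lies apart for Irx4 with 11850 FPKM of myocardial markers and for Irx1 with 14.9 FPKM of epithelial markers.

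Genes described as targets of Iroquois factors were followed as a list. None of 5 was called by limma, against 0.177% of all genes, and none had an unadjusted p under 0.05, against 6.68%. The median log2 fold change of the list was 0.03. Gja5, the connexin 40 gene activated by Irx3 in the ventricular conduction system of the mouse, stood at 58.7, 57.0 and 59.3 FPKM in the conditional knockout libraries, against 69.0, 65.2 and 62.0 FPKM in the control libraries. Gja5 was lower in every conditional knockout library than in any control library, as were 8.17% of all genes. Its log2 fold change of -0.16 ± 0.09 did not pass (SE, limma adjusted p = 0.798). Gja1, the connexin 43 gene repressed by Irx3, averaged 103 ± 12.3 FPKM in conditional knockout hearts and 104 ± 13.2 FPKM in control hearts. Kcnd2, the potassium channel gene repressed by Irx5 in adult mouse ventricle, averaged 1.40 ± 0.340 FPKM in conditional knockout hearts and 1.31 ± 0.256 FPKM in control hearts (SD, n = 3 each). Bmp10, a growth factor gene of trabecular myocardium, had a log2 fold change of 0.29 ± 0.22 and Cxcl12, the chemokine gene repressed by Irx5 in Xenopus, one of 0.03 ± 0.21 (SE).

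Of 6 tested genes for described partners none was called by limma, and none had an unadjusted p under 0.05, against 6.68% of all genes. Smyd1, a histone methyltransferase gene of muscle, had a log2 fold change of -0.06 ± 0.16, the cardiac homeodomain gene Nkx2-5 one of -0.38 ± 0.17 and the T-box gene Tbx5 one of -0.07 ± 0.13 (SE, limma adjusted p = 0.959, 0.769 and 0.929). Among 11 tested TALE homeobox genes outside the Iroquois family limma called none, and the median log2 fold change was -0.01. At an unadjusted p under 0.05 limma counted 1 as higher, against 2.31% of all genes. Pbx2 and Meis2, cofactors of other homeodomain proteins, had log2 fold changes of -0.04 ± 0.10 and 0.10 ± 0.14 (SE).

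Lists of the regions in which Irx3 and Irx4 are used were counted in the same way. With 0.177% of all genes called, no call is to be awaited in these lists, nor in those of targets, partners and TALE genes, and their counts of 0 show nothing about them. Of 6 ventricular genes limma called 0, with 2 lower at an unadjusted p under 0.05, against 4.37% of all genes (median log2 fold change -0.19). For 3 of them every conditional knockout library was lower than any control library, against 8.17% of all genes. Conditional knockout replicate 1 held the lowest value for 5 of the 6, and without that library the median of the list was -0.07. Myl2, the ventricular myosin light chain gene, had a log2 fold change of -0.16 ± 0.22, Myl3 one of -0.21 ± 0.13 and Nppa, the atrial natriuretic peptide gene, one of -0.36 ± 0.13 (SE). Of 9 tested genes of the ventricular conduction system limma called 0, with 1 higher at an unadjusted p under 0.05, against 2.31% of all genes (median -0.07). The most abundant were Id2, at -0.02 ± 0.13, Hopx, at -0.07 ± 0.14, and Gja5.

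**Figure D5:**
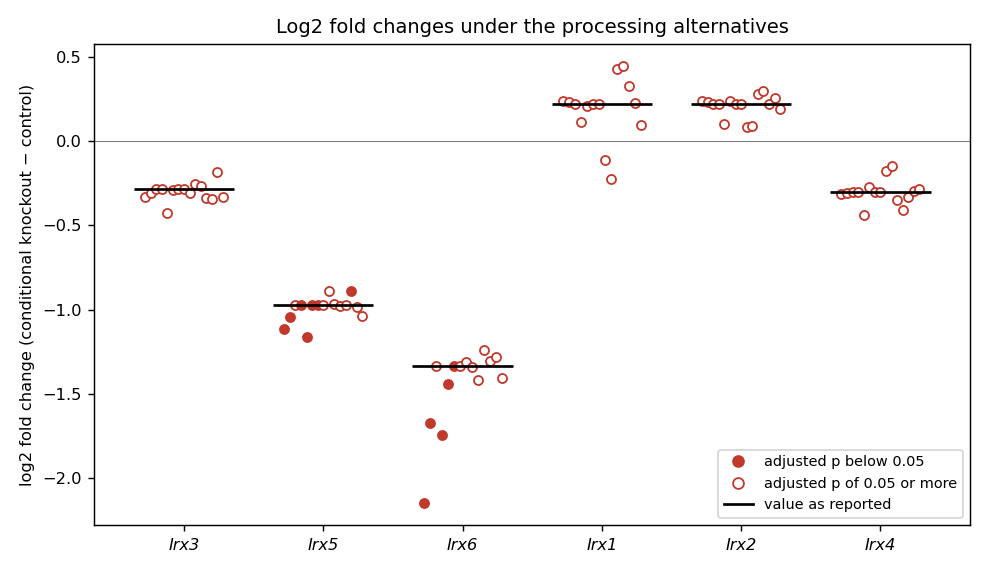
Log2 fold change (conditional knockout minus control) of each Iroquois gene under each processing alternative (circles, filled where the limma adjusted p is below 0.05) beside the value as reported (line). Irx5 and Irx6 stay below 0 under every alternative shown, while Irx1 lies on both sides of 0.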

How the data were processed

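RNA sequencing of 6 heart libraries was analysed from 1 table of 38918 genes. Its values are FPKM made by the authors and deposited without read counts, and the submitters' processing notes name TopHat2 2.0.9, HTSeq, Cufflinks 2.2.1 and Cuffdiff, without saying which step each served, and mm10. The sources used here do not state annotation release, strand or multi-mapping settings. FPKM summed to 481334 to 582261 per library. Among genes under 0.3 FPKM, 10.1% to 17.3% lay at 1 modal ratio between libraries of replicates 2 and 3, and at most 3.76% in pairs with a replicate 1 library, so absolute depth stayed unknown. Members and lists were chosen with earlier results of these data known. Values were tested as log2(FPKM + 1) with limma 3.58.1 in R 4.3.3 (intensity trend, Benjamini-Hochberg adjustment, threshold 0.05) over the 12988 genes whose mean reached 1 FPKM. The fit was tested on simulated data. All 6 members passed the filter. The genes named were the members, Tek, every called member of a list or otherwise its 3 most abundant, all described targets, and the 4 nearest profiles of Irx3, Irx4, Irx5 and Irx6, without predicted genes; others were chosen after their values were seen. A gene taken by this rule is not reported here. GENCODE M21 (GRCm38) gave positions, and 37607 of the listed identifiers were found in it. Replicate numbers are shared between groups in the labels. Deviations of same-numbered libraries from their group means correlated at 0.267, 0.109 and 0.439 for replicates 1, 2 and 3, over 12805 tested genes above 0 in every library. Replicate 2 was close to the limit (0.0306 over all tested genes). Conditional knockout replicate 3 with control replicate 2 came near it, at 0.0953 (0.0559 over all tested genes). The numbers were taken as possible pairs only in the replicate block, an alternative, while the fit reported had no block. An exact 0 can be a failed estimate: 6 of the 7 genes called higher were listed at 0 in all controls.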

Additional observations from a re-analysis of the deposited data

How the results depend on the processing

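Irx5 and Irx6 stayed below 0 in all alternatives run, at -1.16 to -0.89 and -2.15 to -1.24 on the log2 scale, and Irx2, Irx3 and Irx4 kept their direction. The calls were lost with no filter on low values (-0.97 for Irx5, -1.33 for Irx6), with the replicate block (-0.97 and -1.33) and within replicates 2 and 3 (-0.89 and -1.31). Without any 1 library the values were -1.04 to -0.89 and -1.42 to -1.24. Irx1 turned to -0.11 within replicates 2 and 3 and ranged from -0.22 to 0.45 without any 1 library. A minimum mean of 5 FPKM left out Irx1 and Irx6. The 16 lower genes became 7 with no filter, 29 on the TPM scale, 8 within replicates 2 and 3 and 4 to 9 without any 1 library. The 7 higher genes became 6 to 11 without any 1 library, with 11 without conditional knockout replicate 2. Rescaling to TPM moved the median of all genes to -0.14, and relative to it Irx5 stood at -1.03, Irx6 at -1.61, Irx2 at 0.24 and Irx1 at 0.25. The summed ratio of Irx1, Irx2 and Irx4 was 0.892 on the TPM scale and 0.940 to 1.001 without any 1 library, with 1.001 without conditional knockout replicate 2. The difference between the clusters was -1.25 with a pseudocount of 0.1. Without conditional knockout replicate 1, an alternative chosen after seeing the data, 2 in place of 5 endocardial markers were called, and the lists and neighbourhoods with no call still had none. The replicate block, which leaves mean differences as they are, changed no call of the other 4 members. The cause of these shifts was not tested. Depth is unknown, so the counting error of Irx6, at under 1 FPKM in conditional knockout hearts, cannot be given.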
